A study of Drosophila melanogaster with 2 samples.

Results

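Chemosensory receptor genes of Drosophila melanogaster were taken as every gene whose symbol is Or (odorant receptor), Gr (gustatory receptor) or Ir (ionotropic receptor) followed by a number, and 186 of the 18164 annotated genes on the 6 chromosome arms met this rule. They were 60 Or, 60 Gr and 66 Ir genes, of which 7 were annotated as pseudogenes. The study mapped the DNA bound by CG12769 protein with ChIP-seq (chromatin immunoprecipitation and sequencing) in whole embryos 10 to 24 h old. The embryos came from 1 transgenic line that stably expresses CG12769 with green fluorescent protein (GFP) at its C-terminus, male and female animals were pooled, and the antibody was against GFP. The labels give 2 biological replicates, 5 and 7, of this single group, and no untagged or other comparison group was analysed here. The labels describe neither the promoter of the transgene nor the function of CG12769, and whole embryos mix all cell types, so a peak cannot be placed in a sensory neuron or in any other cell.

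Or and Gr proteins are membrane-spanning receptors of insects that form ligand-gated ion channels, and Ir proteins are relatives of the ionotropic glutamate receptors. Each is typically made in a small set of sensory neurons of the antenna, maxillary palp, mouthparts, legs or larval head, where it sets which odour, tastant, temperature or humidity the neuron reports. Most odorant receptors work together with the co-receptor Orco, and many ionotropic receptors with Ir8a, Ir25a or Ir76b. Embryos in the second part of embryogenesis form the larval olfactory and gustatory organs, while the adult antenna and its neurons arise later.

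A peak was assigned to a gene when its summit, the position of highest signal, was at most 500 bp from an annotated start of transcription (TSS) of the gene or fell between the ends of the gene. In the reproducible set, made by the authors with the irreproducible discovery rate (IDR) from both replicates, 4 receptor genes held a peak: Gr39a, Gr63a, Ir60e and Ir94c. All 4 peaks were also within 500 bp of a TSS. The sequences around the Gr39a, Ir94c and Gr63a summits and around the 2 strongest pooled peaks outside the reproducible set are shown because the results on receptor genes rest in part on them. The window at Ir60e, the strongest of the 4 reproducible peaks, is not shown. Each window reaches 100 bp to either side of the summit, plus strand, 5′ to 3′, from the RefSeq copy of the fly Release 6 assembly (dm6). Capitals mark matches, on either strand, to the words TATAAA (the TATA box word), CACGTG (an E-box), ACACAC (a CA repeat), TATCGATA (the DNA replication-related element, DRE), GGTCACAC (a core promoter motif), GAGAG (the GAGA factor word), AATTAA (a homeodomain word), TGACTCA (an AP-1 word), GATAAG (a word bound by GATA factors) and CGATA (the core of the DRE).
Gr39a, 2L:21296426-21296626: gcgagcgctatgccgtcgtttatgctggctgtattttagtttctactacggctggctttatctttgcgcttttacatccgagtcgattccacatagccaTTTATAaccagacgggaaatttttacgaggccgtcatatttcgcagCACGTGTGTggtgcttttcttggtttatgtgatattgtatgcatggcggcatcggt
Ir94c, 3R:22119831-22120031: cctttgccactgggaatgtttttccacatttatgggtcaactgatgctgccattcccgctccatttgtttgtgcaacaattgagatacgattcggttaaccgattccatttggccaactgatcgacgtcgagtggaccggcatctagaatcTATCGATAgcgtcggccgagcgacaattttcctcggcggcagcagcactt
Gr63a, 3L:3896767-3896967: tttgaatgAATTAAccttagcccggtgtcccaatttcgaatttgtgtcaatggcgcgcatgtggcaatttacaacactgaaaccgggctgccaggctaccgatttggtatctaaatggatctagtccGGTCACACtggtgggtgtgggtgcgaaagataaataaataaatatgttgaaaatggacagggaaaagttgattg
Ir87a, 3R:13420095-13420295: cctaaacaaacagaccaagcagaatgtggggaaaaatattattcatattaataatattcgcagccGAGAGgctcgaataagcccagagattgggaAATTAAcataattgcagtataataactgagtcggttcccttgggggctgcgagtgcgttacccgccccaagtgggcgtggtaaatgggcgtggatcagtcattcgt
Ir67c, 3L:10434295-10434495: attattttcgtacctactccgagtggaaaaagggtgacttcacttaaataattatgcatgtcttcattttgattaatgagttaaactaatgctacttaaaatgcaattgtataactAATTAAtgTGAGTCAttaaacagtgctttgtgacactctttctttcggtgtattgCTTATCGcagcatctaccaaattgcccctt

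The Gr39a window held TATAAA across its summit and, 45 bp after it, CACGTG, which 2.62% of the windows at all 8574 IDR summits also held. The Ir94c window held TATCGATA, found in 1.89% of the IDR windows, and the Gr63a window held GGTCACAC, found in 1.55% of them. In the Ir87a window there were GAGAG (27.1% of the windows at all 30000 pooled summits) and AATTAA (24.8%), and in the Ir67c window TGACTCA (2.38%), AATTAA, also GATAAG (11.1%) and a CGATA match that overlaps it (24.2%). A match describes letters in a window and does not show a binding site.

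The share of receptor genes with a reproducible peak was below that of genes in general, counted in the same way. The 4 receptor genes were 2.15% of 186 (exact 95% interval 0.589 to 5.41%), whereas 19.2% of all 18164 genes had an IDR summit at a TSS by the same limit, and 23.4% had one at a TSS or inside the gene. Intervals are Clopper-Pearson and cover counting error only, and neighbouring receptor genes are not independent of each other. A gene with many start sites has more chances to meet a summit, and 174 of the receptor genes have 1 annotated TSS. Of these 174, 3 had an IDR summit within 500 bp of it (1.72%, interval 0.357 to 4.96%), against 14.5% of 10079 other protein-coding genes with 1 TSS.

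The longer lists, which add weaker peaks, showed the same order. The list called on both replicates together holds 30000 peaks, and the reproducible set makes up 28.58% of it. Its counts therefore include the genes already counted with the reproducible set, and weaker peaks alone were not compared with all genes. In this pooled list, 9 receptor genes had a summit within 500 bp of a TSS (4.84%, interval 2.24 to 8.99%), against 33.1% of all genes. Counting summits inside the gene added Ir21a, which made 10 receptor genes (5.38%, interval 2.61 to 9.66%), against 36.9% of all genes. Among genes with 1 TSS, 8 of 174 receptor genes had a pooled summit at it (4.60%), against 26.5% of other protein-coding genes. The list of replicate 5 gave 11 receptor genes (5.91%, interval 2.99 to 10.3%), against 39.4% of all genes, and the list of replicate 7 gave 8 (4.30%, interval 1.87 to 8.30%), against 37.1%. A summit in both replicate lists was present for 6 receptor genes, namely Gr39a, Gr63a, Gr97a, Ir21a, Ir60e and Ir67c (3.23%, interval 1.19 to 6.89%), against 33.4% of all genes. Over all 4 lists 13 receptor genes held at least 1 summit (6.99%, interval 3.77 to 11.7%) and 173 held none. The lists were not combined in this way for all genes, of which 39.4% had a summit in the list of replicate 5 alone.

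The shares of the 3 families had overlapping intervals. Among the 60 Or genes 0 had an IDR peak, which allows a share of up to 5.96%, while 2 of 60 Gr genes (3.33%, interval 0.406 to 11.5%) and 2 of 66 Ir genes (3.03%, interval 0.369 to 10.5%) had one. Pooled summits were at 2 Or genes (3.33%), 3 Gr genes (5.00%) and 5 Ir genes (7.58%, interval 2.51 to 16.8%). In both replicates a summit was found at 0 Or, 3 Gr and 3 Ir genes. The Ir genes with conserved expression in the antenna, 18 of the 66, had 0 IDR peaks (up to 18.5%) and 1 pooled peak, at Ir21a, and the other 48 Ir genes, most of them divergent receptors of taste organs, had 2 IDR and 4 pooled peaks. None of the 7 pseudogenes had a summit in any of the 4 lists, which on so few genes allows a share of up to 41.0%.

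**Figure D1:**
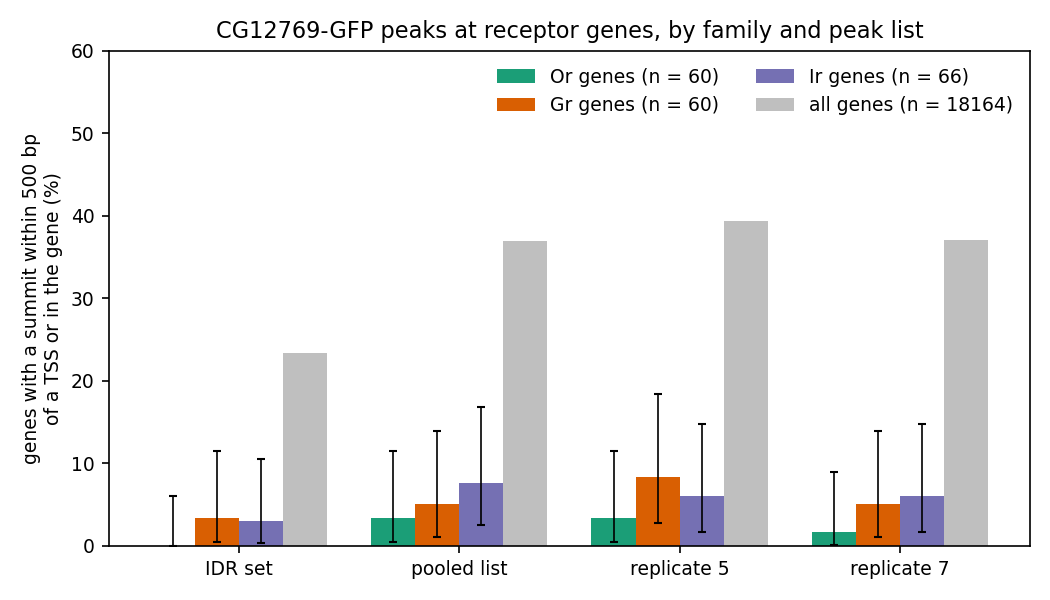
Share of Or (n = 60), Gr (n = 60) and Ir (n = 66) genes, and of all 18164 genes, with a summit within 500 bp of a TSS or in the gene (y axis, percent), in each of the 4 peak lists (x axis); error bars are exact 95% intervals and are drawn for the receptor families. Every family lies below the bar of all genes in every list, and the intervals of the 3 families overlap.

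Of the 4 reproducible peaks, 3 lay nearer to the start of another gene than to that of the receptor gene. How often this holds for peaks at genes outside the 3 families was not counted. Ir60e had the strongest peak of any receptor gene, with a signal value of 682 and rank 1060 of the 30000 pooled peaks (2R:24531480-24531749). It was found in both lists, at 332 (rank 892) in replicate 5 and 344 (rank 1386) in replicate 7. Its summit was 324 bp upstream of Ir60e and 2 bp from the TSS of CG13585, which is read away from Ir60e on the other strand, with 322 bp between the 2 start sites. Signal values are the authors' and are compared only within a list.

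Gr63a encodes a subunit of the carbon dioxide receptor and lies head to head with Lamtor4, which encodes a subunit of the lysosomal Ragulator complex, with 297 bp between the start sites. The peak (3L:3896672-3897061) had a signal value of 220 (rank 6258) in the pooled list, 103 (rank 5902) in replicate 5 and 123 (rank 6956) in replicate 7. Its pooled summit was 264 bp upstream of Gr63a and 33 bp from the TSS of Lamtor4, and in the replicates it was 30 bp and 7 bp from Lamtor4. The ranks in the 3 lists were close to each other, and each summit lay nearer to the start of Lamtor4 than to that of Gr63a.

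Ir94c lies head to head with CG42390, 607 bp away. Its peak (3R:22119736-22120125) had a signal value of 242 (rank 5548) in the pooled list and 128 (rank 4397) in replicate 5. In replicate 7 an overlapping peak of 121 (rank 7089) was present, but its summit lay more than 500 bp from Ir94c. The pooled summit was 477 bp upstream of Ir94c and 130 bp from the start of CG42390, and it was the reproducible summit nearest to the limit of 500 bp on its inner side. The nearest on the outer side was 667 bp from Or88a (3R:14108696-14108926, signal value 234) and 457 bp from the TSS of CG12402.

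Gr39a was the exception among the 4. The gene encodes several taste receptor proteins that share their last exons and start at 4 alternative first exons, and it lies on the opposite strand within an intron of Mondo, a sugar-responsive transcription factor gene. The peak (2L:21296331-21296720) had a signal value of 271 (rank 4729) in the pooled list, 95.6 (rank 6511) in replicate 5 and 173 (rank 4258) in replicate 7. Its summit lay in coding sequence, 212 bp downstream of the last of the 4 start sites, and the nearest start of another gene, that of Mondo, was 7583 bp away. It was the 1 reproducible summit located inside a receptor gene.

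The pooled peaks at receptor genes outside the reproducible set were 5 in number. All 5 lay below 170, the lowest signal value of that set, so their low values go with being outside it. Their −log10 q values, as given by the authors, ran from 0.480 (Or45b) to 0.907 (Ir87a), while the lowest in the reproducible set was 2.25. Ir87a had a signal value of 76.9 (rank 18560), with 60.4 (rank 14936) in replicate 7 and no peak in replicate 5 (3R:13420000-13420389). Its summit was the closest to a receptor start in the pooled list, 84 bp upstream, and the next other gene, the yellow family member yellow-e, started 4909 bp away. Ir67c had 74.1 (rank 19127), with 38.7 (rank 17038) in replicate 5 and 36.7 (rank 22900) in replicate 7 (3L:10434200-10434589). That summit was 290 bp upstream of Ir67c and 21577 bp from the nearest start of a gene outside the 3 families, CG12362. It was the 1 pooled-only peak at a receptor start that was seen in both replicates.

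Or10a and Gr10a have the same annotated ends and start, so they share 1 peak (X:11417604-11417993). It had a signal value of 42.8 (rank 28996) in the pooled list and 30.1 (rank 21194) in replicate 5, with none in replicate 7, and lay 377 bp upstream of the pair and 5033 bp from the glutamine synthetase gene Gs2. Or45b had 41.0 (rank 29895) in the pooled list and 29.5 (rank 21539) in replicate 5, with none in replicate 7, at a summit in its coding sequence (2R:9559604-9559993). Both Or peaks were thus absent from 1 replicate. The lowest value in the pooled list was 40.8, so these peaks stood just above the end of the list.

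Ir21a, which encodes a receptor for cooling, had a pooled peak of 42.7 (rank 29042) and one of 45.3 (rank 19376) in replicate 7 (2L:21641-22030). The summit was 3319 bp downstream of the Ir21a start, 116 bp from the antisense RNA gene asRNA:CR43609 and 460 bp from the cell polarity gene l(2)gl. Replicate 5 had no peak at that place and had 2 others in Ir21a, of 34.3 (rank 18975) and 22.1 (rank 27009), and replicate 7 had a further one of 25.7 (rank 29900). Ir21a therefore counts as present in both replicates without any peak that the replicates shared.

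**Figure D2:**
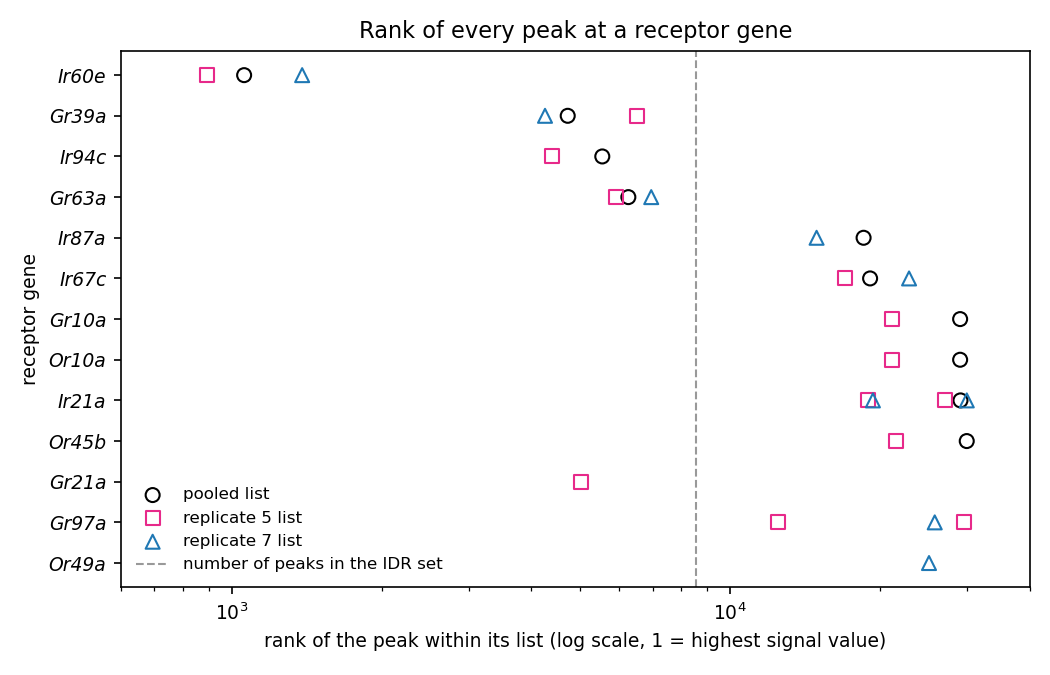
Rank of each peak at a receptor gene (x axis, log scale, 1 being the highest signal value of the list) for the 13 receptor genes with a summit in any list (y axis); circles, squares and triangles are the pooled, replicate 5 and replicate 7 lists, and the dashed line is the number of peaks in the reproducible set, 8574. The 4 genes with a reproducible peak lie left of the line in each list that has a point for them, and the other pooled peaks start at rank 18560.

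Receptor genes with a peak in a single replicate's list, or in both replicates and not in the pooled list, were Gr21a, Gr97a and Or49a. Gr21a, the partner of Gr63a in carbon dioxide reception, had a peak in replicate 5 with a signal value of 117 (rank 5017, 2L:780872-781231). Its −log10 q of 4.11 was the maximum of that list, a value that the replicate 5 peaks at Ir60e, Ir94c and Gr63a (rank 5902) shared. No peak of replicate 7, of the pooled list or of the reproducible set overlapped the Gr21a peak. Its window, in which the capitals mark GAGAG, is shown because it was the strongest peak at a receptor gene that the other replicate lacked.
Gr21a, 2L:780952-781152: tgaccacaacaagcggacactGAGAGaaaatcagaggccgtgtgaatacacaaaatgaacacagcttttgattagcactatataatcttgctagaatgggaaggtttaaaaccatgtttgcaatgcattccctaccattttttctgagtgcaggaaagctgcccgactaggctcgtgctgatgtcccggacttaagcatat

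Among the 5017 strongest peaks of replicate 5, 288 (5.74%) had no overlapping peak in replicate 7 and 178 (3.55%) had none in replicate 7 or the pooled list. Among as many of replicate 7 the shares were 2.29% and 0.877%. Peaks like that at Gr21a were therefore a small part of the strong peaks of either replicate. The Gr21a summit was 224 bp upstream of one of its 2 start sites, in a noncoding part of an exon, and 1879 bp from the start of CG13947.

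Gr97a lies head to head with CG5521, with 445 bp between the starts. A peak of 53.5 (rank 12495) in replicate 5 had its summit 496 bp upstream of Gr97a and 51 bp from CG5521. The pooled peak there, of 167 (rank 8735), had its summit 574 bp from Gr97a and so was not counted, and the overlapping peak of replicate 7 had 151 (rank 5188). Weaker peaks in the coding sequence of Gr97a had 19.6 (rank 29512) in replicate 5 and 31.5 (rank 25784) in replicate 7. Or49a had a peak of 32.7 (rank 25111) in replicate 7, 425 bp upstream of it. The pooled summits just beyond the limit of 500 bp were at Ir48b (550 bp, signal value 63.8), Gr97a, Or88a (667 bp, 234) and Or49a (681 bp, 97.7).

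Where the nearest start sites are compared, pooled peaks at receptor genes fell into 2 kinds. Of the 9 distinct pooled peaks, 4 had a summit nearer to a start of a gene outside the 3 families (44.4%, interval 13.7 to 78.8%), at Ir60e, Gr63a, Ir94c and Ir21a. The other 5 lay nearer to the receptor, at Gr39a, Ir87a, Ir67c, Or45b and the pair Or10a and Gr10a. In the replicate lists 5 of 12 peaks (41.7%) and 4 of 9 peaks (44.4%) lay nearer to the other gene, in replicates 5 and 7. The same share was not counted for peaks assigned to genes outside the families, so these values cannot be called particular to receptor genes.

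**Figure D3:**
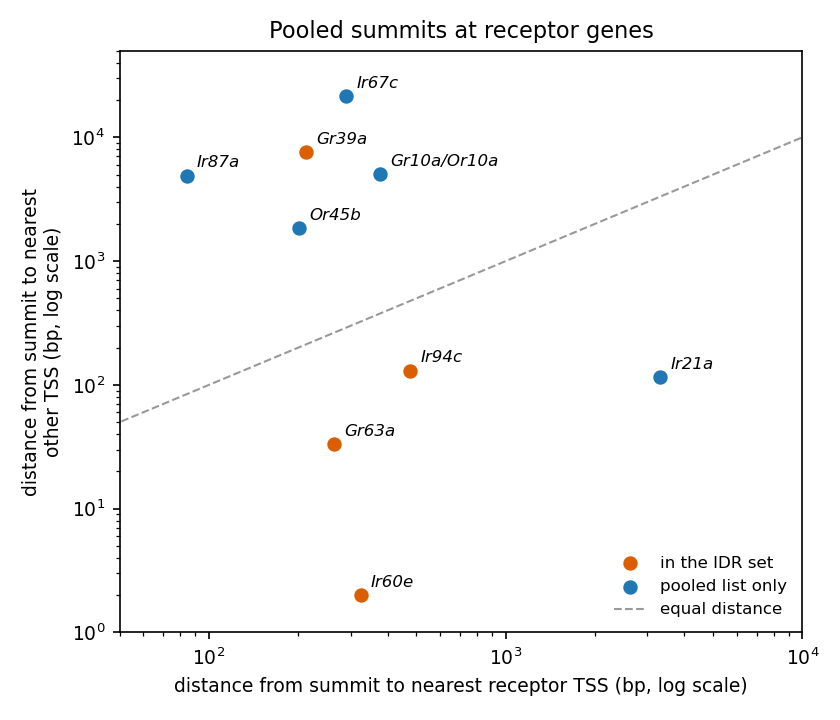
Distance of the 9 pooled summits at receptor genes to the nearest receptor TSS (x axis, bp, log scale) and to the nearest TSS of any other gene (y axis, bp, log scale); the dashed line marks equal distances, orange points are peaks of the reproducible set and blue points are pooled peaks outside it. Of the 4 orange points, 3 lie below the line, nearer to the other gene, and Gr39a lies above it.

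The 4 peaks of the reproducible set were 44.4% of the 9 pooled peaks at receptor genes (interval 13.7 to 78.8%). That interval holds the 28.58% that the set makes up of all pooled peaks. Each of the 4 had the same rank by signal value in the reproducible set as in the pooled list, so every pooled peak down to rank 6258 was in the set. Membership thus went with signal value, and lower values outside the set are not a separate result on receptor genes. The median signal value was 76.9 over the 9 peaks and 98.1 over the whole pooled list, and the median rank of the 9 was 18560. The 4 reproducible peaks had values of 220, 242, 271 and 682, against a median of 289 over the reproducible set, so Ir60e alone was above it.

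The 15 receptor genes that have the start of another gene within 500 bp of their own were set beside the 171 that have none. Of the 15, 2 (Gr63a and Ir60e) had an IDR summit within 500 bp of their start (13.3%, interval 1.66 to 40.5%), and of the 171, 2 had one (1.17%, interval 0.142 to 4.16%). In other protein-coding genes the shares were 27.7% of 4768 genes with such a neighbour and 18.3% of 8998 without. Among those with 1 TSS, as most receptor genes have, they were 19.7% of 3152 and 12.1% of 6927. With the pooled list, 2 of the 15 (13.3%) and 7 of the 171 (4.09%, interval 1.66 to 8.25%) had a summit, against 38.9% and 33.3% of other protein-coding genes. The interval for receptor genes without a close neighbour lay below the share of other protein-coding genes without one, and the interval of the 15 held the share of other protein-coding genes with such a neighbour, with either list. The 13 genes with a close neighbour and no IDR summit at their start were Gr61a, Gr85a, Gr93c, Gr94a, Gr97a, Ir31a, Ir60b, Ir75c, Ir76a, Ir8a, Or46a, Or49b and Or63a.

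Some receptor genes lie inside other genes, and the share of all genes that do was not counted. Of the 186, 30 lay between the ends of a gene outside the 3 families, and 24 of these lay within 1 of its introns without touching an exon (10 Or, 6 Gr and 8 Ir genes), 19 of them with a host on the opposite strand. The lengths of the 20 intron hosts summed to 772 kb, with bases shared by overlapping hosts counted for each. They held 16 IDR and 92 pooled summits at their starts or within them. An IDR summit was present for 8 of the 20 hosts and a pooled summit for 14, beside 23.4% and 36.9% of all genes by the same rule. The hosts are long, so they have more room for a summit than most genes. Of the 24 nested receptor genes themselves, Gr39a alone had an IDR or a pooled summit. The fibroblast growth factor gene ths, host of Ir48c, had 3 IDR and 29 pooled summits, CG3777, host of Or1a, had 2 and 22, and the centrosome gene Plp, host of Or71a, had 1 and 9. Mondo had 5 and 7, counting the one at Gr39a. CG43795, host of Or59b and Or59c, had 0 of either. Of the 9 pooled peaks at receptor genes 2 were at a gene inside another (22.2%), Gr39a and Or45b, whose host is the antisense RNA gene asRNA:CR45281. Beside the 30 nested genes among the 186, so few peaks do not set nested receptor genes apart.

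Counted by length, peaks inside receptor genes were few. The receptor genes together covered 473 kb and held 1 IDR summit (2.11 per Mb) and 3 pooled summits (6.34 per Mb). Other protein-coding genes held 67.1 IDR and 238 pooled summits per Mb over 89.5 Mb. Receptor genes had a median length of 1458 bp for Or, 1397 bp for Gr and 1897 bp for Ir genes, the longest being Ir41a at 104437 bp.

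The median distance to the nearest reproducible peak was longer for receptor genes than for other protein-coding genes. The distance from a receptor TSS to the nearest IDR summit had a median of 15.7 kb (quartiles 7.17 and 32.4 kb), against 6.06 kb (0.884 and 16.0 kb) in other protein-coding genes and 7.57 kb in those with 1 TSS. The medians were 17.8 kb for Or, 14.8 kb for Gr and 14.3 kb for Ir genes. No IDR summit was found within 20 kb of 70 receptor genes (37.6%), against 19.9% of other protein-coding genes. Within 1 kb there was one for 5 receptor genes (2.69%), against 25.7%. For pooled summits the medians were 6.78 kb in receptor genes and 2.63 kb in other protein-coding genes. The nearest IDR summit lay within 500 bp of the start of a gene outside the families for 95 of the 186 receptor genes (51.1%). These summits belonged to 126 distinct peaks, since neighbouring genes can have the same one, and 67 of the peaks (53.2%) lay that close. The share among the nearest summits of other genes was not counted.

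**Figure D4:**
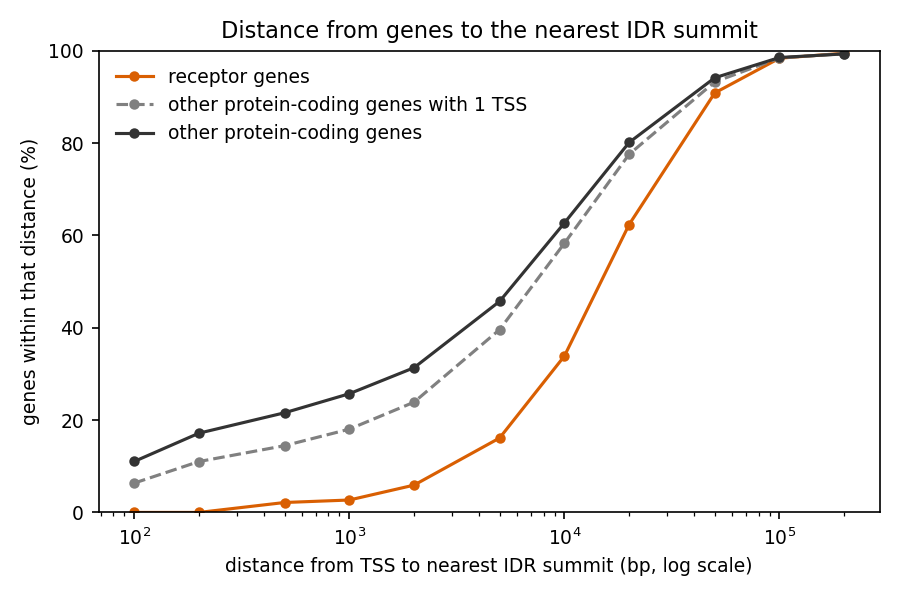
Percent of genes (y axis) whose nearest IDR summit lies within a given distance of a TSS (x axis, bp, log scale), for the 186 receptor genes, for other protein-coding genes with 1 TSS and for all other protein-coding genes. At 10000 bp the curves stand at 33.9%, 58.3% and 62.7%, and at 100000 bp they stand at 98.4%, 98.4% and 98.5%.

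The co-receptor genes Ir8a, Ir25a, Ir76b and Ir93a held no summit in any list. Orco, which carries no number in its symbol and so is not among the 186, had 0 IDR and 0 pooled summits at its starts. The nearest IDR summit was 2.56 kb from Ir25a, at a peak 136 bp from the start of the gene tank with a signal value of 3590 (rank 33). It was 6.62 kb from Ir76b, 9.41 kb from Ir93a, which works with Ir25a in temperature and humidity sensing, and 34.0 kb from Ir8a. Of the 2 carbon dioxide receptor genes, Gr63a had the peak shared with Lamtor4, and Gr21a was 40.2 kb from the nearest IDR summit. The receptor genes farthest from one were Ir41a (401 kb) and Or19b (130 kb), and those just outside the 4 with a peak were Or88a (667 bp), Gr39b (1338 bp) and Gr89a (1401 bp).

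Many receptor genes stand in tandem. With a gap of up to 10 kb between members, a value set after the distances had been seen, 16 runs of 3 or more receptor genes held 60 genes. In 15 of the 16 runs there was no IDR and no pooled summit between the ends of the run. The runs were short, and no stretches of equal length elsewhere were counted. By the rule used for genes, which also reaches 500 bp beyond a start, 2 of the 60 genes had an IDR peak (Ir60e and Ir94c) and 4 a pooled peak (also Or10a and Gr10a), each with its summit outside the ends of its run. The sugar receptor genes Gr64a to Gr64f (6 genes over 10.8 kb, 3L:4026769-4037575), the genes Ir7b to Ir7g (6 genes over 22.0 kb, X:7864948-7886976) and the 5 genes Gr22a to Gr22e (10.9 kb, 2L:1784062-1794917) were among them.

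The exception was the run from Gr93a to Gr93d, which was singled out after its values were seen (3R:21832503-21846659). It held 3 IDR and 11 pooled summits, and 0 of them met the rule for a receptor gene. All 11 lay in the 8.51 kb between Gr93a and Gr93b, at 1623 to 5421 bp from the nearest Gr93 start. Their signal values ran from 52.4 to 354, and the 3 reproducible ones had 199, 354 and 181. Each replicate had 11 summits in the same stretch. The next gene beyond Gr93d, glec, lay 4.03 kb away and held 8 pooled and 3 IDR summits, and 3 more pooled summits lay between Gr93d and glec.

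Other genes of chemosensation were counted by the same TSS rule, which 19.2% of all genes met with the IDR set and 33.1% with the pooled list. Odorant-binding proteins carry odour molecules through the lymph of the sensillum, and 3 of 51 Obp genes had an IDR summit at a start (5.88%, interval 1.23 to 16.2%), namely Obp57d (signal value 197), Obp83g (357) and Obp99b (269). A pooled summit was at 8 Obp genes (15.7%, interval 7.02 to 28.6%). Of 20 CheA and CheB genes 1 (CheB42c, 202) and of 29 genes of the pickpocket sodium channels 1 (ppk17, 382) had an IDR summit. Snmp1, a membrane protein of pheromone-sensing neurons, and its relative Snmp2 had 0 IDR summits and 1 pooled summit between them.

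The 3 lists of genes less restricted to chemosensory neurons had shares around the 19.2% of all genes, on small numbers. Of 14 glutamate receptor genes, the relatives of the Ir genes, 2 had an IDR summit at a start (14.3%), Nmdar1 (181) and GluRIIB (173). Of 18 transcription factor genes that act in olfactory neurons 4 did (22.2%, interval 6.41 to 47.6%), namely zf30C (525), ab (508), Xbp1 (418) and fru (313). Of 10 TRP channel genes of sense organs 2 did (20%, interval 2.52 to 55.6%), Trpm (915) and wtrw (415). These lists have longer genes, with medians of 6.18, 19.5 and 8.29 kb against 1.68 kb in receptor genes. Several start sites are annotated for 9 of the 18 transcription factor genes and 5 of the 10 TRP channel genes, against 12 of 186 receptor genes, and for 1 of the 14 glutamate receptor genes.

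The same words were counted at start sites, a count added after the peak results had been seen. In windows reaching 100 bp to either side of the TSS, TATAAA on either strand was in 67.7% of 62 Or windows (interval 54.7 to 79.1%), 17.1% of 70 Gr windows (9.18 to 28.0%) and 31.9% of 72 Ir windows (21.4 to 44.0%), against 26.8% of 19056 windows at other protein-coding genes. The Or interval lay above the value of the other genes, the Gr interval and that of Ir genes did not. ACACAC was in 2.46% of all 203 receptor windows (0.804 to 5.65%), against 13.6% at other protein-coding genes, and GAGAG in 16.3% (11.5 to 22.1%), against 25.1%. By family GAGAG was in 14.5% of Or, 24.3% of Gr and 9.72% of Ir windows, so Gr windows stood near the other genes. GGTCACAC was in 0 of the 203, which allows up to 1.80%, against 5.74%, and TATCGATA in 1.48% (0.306 to 4.26%), against 6.50%. AATTAA was in 22.6% of Or, 34.3% of Gr and 34.7% of Ir windows, against 24.2%, so Or windows were on the other side of that value, and the intervals of Gr (23.3 to 46.6%) and Ir windows (23.9 to 46.9%) held it.

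**Figure D5:**
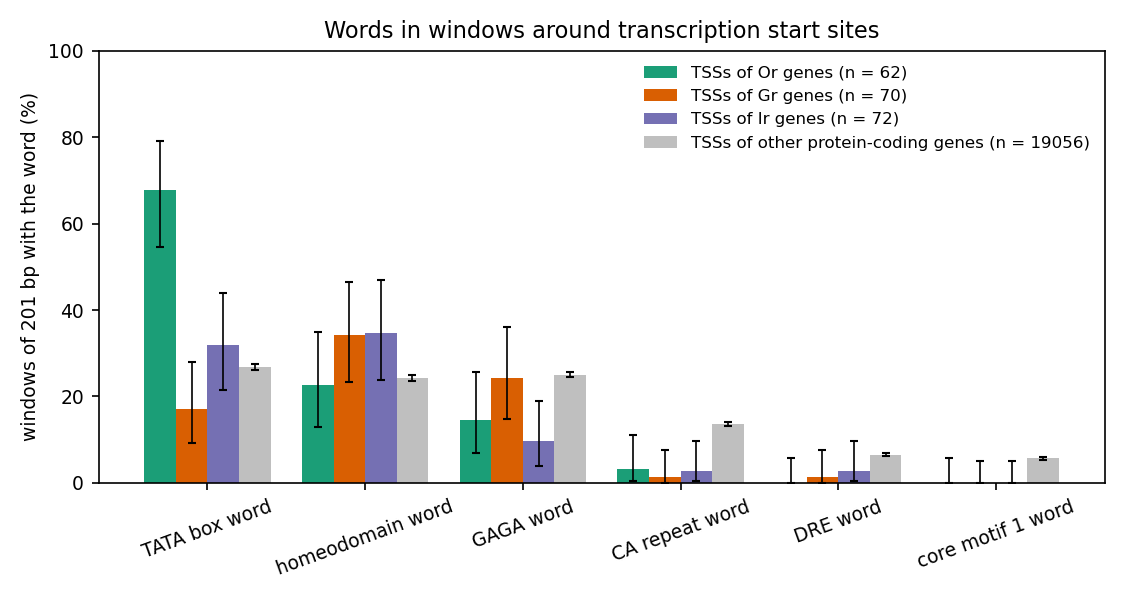
Percent of windows of 100 bp to either side of start sites (y axis) that hold each of 6 words (x axis), for Or (n = 62), Gr (n = 70), Ir (n = 72) and other protein-coding genes (n = 19056); error bars are exact 95% intervals. The TATA box word stands at 67.7% in Or windows against 26.8% in those of other protein-coding genes, and the CA repeat, DRE and core motif 1 words have lower shares than the other genes in all 3 families, though the DRE intervals of Gr and Ir genes reach past 6.50% and the core motif 1 interval of Or genes reaches past 5.74%.

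CGATA (25.1% of receptor windows against 37.2%), CAGCTG (7.39% against 13.5%) and CAGCTGTT (0.985% against 5.45%) also had lower shares at receptor starts. At all IDR summits their shares were 26.8%, 10.6% and 3.30%, lower than at starts of other protein-coding genes. At receptor starts the intervals of these words were 19.3 to 31.7%, 4.19 to 11.9% and 0.120 to 3.51%. Each Or interval held the value of the other genes, as did the Ir interval for CAGCTG and the Gr interval for CAGCTGTT. The word ATTTGCAT (4.43%, 2.05 to 8.25%, against 1.71%) and AATTAA (31.0%, 24.7 to 37.9%, against 24.2%) had higher shares at receptor starts. TGACTCA was in 6.94% of Ir windows (2.29 to 15.5%), against 1.58%, but in 1.43% of Gr and 0% of Or windows. At all IDR summits GAGAG was in 32.4% and ACACAC in 20.7% of the windows, more than in 25.1% and 13.6% at starts of other protein-coding genes, whereas TATCGATA (1.89%) and GGTCACAC (1.55%) were rarer than at those starts. In the 9 pooled windows at receptor genes GGTCACAC was found in 2 and TATCGATA, GAGAG and ACACAC in 1 each. Median GC content was 43.3% at receptor starts, 42.3% at starts of other protein-coding genes and 44.3% at all IDR summits. The part of these words in the low share of receptor genes with a peak was not tested.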

How the data were processed

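ChIP-seq peaks of GFP-tagged CG12769 were analysed as 4 deposited peak lists on dm6. Per the labels, chromatin was sonicated to 200 to 800 bp. Per the notes deposited with the files, the authors called peaks on each replicate and on both together, each time with 1 further alignment file that is not described, and derived the IDR set from these 3 lists. Not given in the sources used here were the aligner, peak caller and IDR cutoff. Each signal value and −log10 q value is the authors', as deposited, the scale of the signal is not stated, and all lists but the IDR set (8574 peaks) hold 30000 peaks. Read depth is unknown, so no interval covers it, and no peak heights were compared across lists. The age of 10 to 24 h is that of the sample source field; the separate age field of the labels gives a number of hours that conflicts with it, and was not used.

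Genes, exons and TSSs came from Ensembl release 115 (BDGP6.54), on the 6 arms and without transposable elements, and sequences from the RefSeq copy of the same assembly (dm6). Summits were assigned to genes within 500 bp of a TSS or between the gene ends. Shares have exact Clopper-Pearson intervals at 95%, and no significance test was made, since the series has 1 group. Windows reached 100 bp to each side, and 16 words were searched on both strands: GAGAG, TATCGATA and inside it CGATA, the Zelda word CAGGTAG, the E-box words CACGTG, then CAGCTG with its longer form CAGCTGTT, the basic zipper words TGACTCA or TGANNTCA, the TEAD word CATTCN, the TATA box word TATAAA, core promoter word GGTCACAC, homeodomain word AATTAA, POU word ATTTGCAT, also GATAAG and lastly ACACAC. The assignment of summits was tested on simulated peaks. Genes were named by rule: every receptor gene with an IDR or a pooled peak, up to 30, the co-receptor and carbon dioxide receptor genes, and for each peak the nearest other gene and any host. The members and lists were chosen with earlier results of these data known. The words at start sites, the Gr93 stretch, tandem runs, genes nearest to an IDR summit and peaks of 1 replicate were added after values were seen. Python 3.11.15, pandas 2.3.3, NumPy 2.4.6, SciPy 1.17.1 and matplotlib 3.10.9 were used.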

Additional observations from a re-analysis of the deposited data

How the results depend on the processing

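Of 37 alternatives, each planned in the design, 28 left a count within 1.5 times its value, or a share within its interval, and 9 did not. With a TSS distance of 200 bp, receptor genes with an IDR summit at a TSS numbered 0 (4 at 500 bp; 14.4% of all genes at 200 bp) and those with one at a TSS or in the gene 1 (Gr39a), those with a pooled summit 4 (10 at 500 bp), and those with a summit in both replicates 3 (6 at 500 bp). With 1000 bp, a pooled summit was at 18 and a summit in both replicates at 13 receptor genes, and the IDR count was 5, adding Or88a. At 1000 bp, 23.9% of all genes had an IDR summit at a TSS. A pooled summit lay within 1000 bp of a TSS for 9.14% of receptor genes and 40.5% of other protein-coding genes, and within 200 bp for 0.538% and 28.6%. In the 2143 strongest peaks of the IDR set, 1 receptor gene had a summit at a TSS, or at a TSS or in the gene, Ir60e. In the 15000 strongest peaks of each replicate, 3 had one in both, Gr39a, Gr63a and Ir60e. The share of all genes was not counted for these strongest peaks, nor for both replicates at 200 or 1000 bp. With the list of a single replicate, cut to the size of the IDR set, in place of that set, the count was 3 without replicate 5 and 5 without replicate 7, the added gene being Gr21a. With a single replicate's list in place of the pooled list it was 8 to 11, the share of peaks nearer to another gene was 41.7 to 44.4%, and the share at a nested gene 11.1 to 16.7%. The list of 30000 peaks per replicate has no stated threshold, so the weak pooled peaks at receptor genes depend on where it ends. No paired analysis was possible because the series has 1 group.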
